A study of Mus musculus with 11 samples.

Results

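In all, 10 extracellular matrix genes were followed in cultured fetal lung mesenchymal cells: the tenascins Tnc, Tnxb and Tnn, the thrombospondins Thbs1, Thbs2, Thbs3, Thbs4 and Comp, and the adhesive glycoproteins Fn1 and Postn. They were chosen by name, with earlier results of these data known, and all 10 were found among the 24062 gene symbols counted. The cells were primary cultures from mouse lungs at embryonic day 15, selected by rapid adhesion to plastic and then passaged, so each library is a bulk culture rather than a sorted cell type. Of the libraries, 4 were Sp3+/+ (wild type, WT), 4 were Sp3+/- and 3 were Sp3-/-, which lack both copies of the gene for the transcription factor Sp3. Embryos came from matings of Sp3+/- mice, the labels name no further allele or agent, and libraries are named here by the 2 numbers of their label, such as 468-4. The comparison of genotypes asks how loss of Sp3 alters the mRNA of these genes.

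Tenascins and thrombospondins are large secreted glycoproteins that modify how cells attach to matrix, and most are strongest during organ growth and repair. Tenascin-C (Tnc) surrounds growing airways and septa in the fetal lung, tenascin-X (Tnxb) binds collagen fibrils in mature connective tissue, and tenascin-W (Tnn) is mostly found around bone. Thrombospondin-1 and -2 (Thbs1, Thbs2) form trimers and restrain vessel growth, and Thbs1 also activates latent TGFβ. Thbs3, Thbs4 and cartilage oligomeric matrix protein (Comp) form pentamers and are typical of cartilage, tendon and muscle. Fibronectin (Fn1) is the scaffold on which many matrix proteins assemble, and periostin (Postn) links fibronectin and tenascin-C to collagen.

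Sp3 belongs to a family of factors that bind GC boxes in promoters, so the 250 bases before the annotated starts of the members were searched (RefSeq sequences, GRCm38.p6). Of the 10 genes, 7 had an entry. The GC box core GGGCGG, on either strand, was present before a start of Tnc, Thbs3 and Thbs4, that is 3 of 7 genes, and in 32.7% of all 32851 windows of this length. TATAAA on the strand of the gene was present before a start of Tnc and Postn, 2 of 7 genes, and in 7.6% of all windows. A gene was counted if any of its windows held the motif, whereas the shares are per window. The windows of Tnc and Thbs4 hold sequence of a transcript of the same gene in a newer annotation (GENCODE vM39). Their motifs lie past the first base of that sequence, so only the matches of Thbs3 and Postn are in windows without it. Windows of 3 genes that were lower in Sp3-/- libraries are shown because they differ in these motifs: that of Thbs3 holds a GC core on the opposite strand at position -21, that of the downstream Postn start holds TATAAA at position -26, and that of Thbs2 holds neither. Positions are counted back from the start, and capitals mark the motif. A match is a string of letters and not evidence of binding.
Thbs2, chr17:14694263-14694512, minus strand: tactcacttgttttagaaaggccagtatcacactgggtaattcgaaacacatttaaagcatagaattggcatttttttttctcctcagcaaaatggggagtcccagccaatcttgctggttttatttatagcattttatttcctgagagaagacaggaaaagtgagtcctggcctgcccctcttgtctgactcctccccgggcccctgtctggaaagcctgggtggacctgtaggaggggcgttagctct
Thbs3, chr3:89214930-89215179, plus strand: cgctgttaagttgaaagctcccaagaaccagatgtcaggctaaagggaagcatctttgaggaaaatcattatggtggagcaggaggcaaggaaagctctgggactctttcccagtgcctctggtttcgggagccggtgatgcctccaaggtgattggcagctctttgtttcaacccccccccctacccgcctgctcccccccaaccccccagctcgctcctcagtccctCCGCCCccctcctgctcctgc
Postn, chr3:54360857-54361106, plus strand: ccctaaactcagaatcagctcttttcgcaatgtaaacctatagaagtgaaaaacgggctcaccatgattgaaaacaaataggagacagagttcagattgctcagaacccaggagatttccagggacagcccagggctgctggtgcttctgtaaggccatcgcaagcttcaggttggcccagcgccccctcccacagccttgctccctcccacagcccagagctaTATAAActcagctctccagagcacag

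Between 9849111 and 59297495 reads were counted on genes per library. The 10 genes took 2.18% to 3.11% of them in WT, 2.01% to 2.85% in Sp3+/- and 0.797% to 1.46% in Sp3-/- libraries. Sp3 itself, the check of the labels, was at 6.52, 5.92, 6.75 and 6.30 log2 CPM (reads of the gene scaled to those of the library) in WT 468-4, 685-2, 697-1 and 697-3, at 5.70, 5.98, 6.16 and 5.81 in Sp3+/- 468-3, 685-5, 685-7 and 697-4, and at 4.24, 4.20 and 3.86 in Sp3-/- 685-1, 697-2 and 697-5. The Sp3-/- libraries lay below all others. Library titles carry a suffix that the labels do not explain. All 3 Sp3-/- libraries, WT 468-4 and Sp3+/- 697-4 have none, Sp3+/- 468-3 has 2, and the other 3 WT and 2 Sp3+/- libraries have 3, so suffix and genotype are nearly confounded. The file of 697-4 carries suffix 2 although its title has none, so a fit with this library recoded to 2 was added after the data were seen, and the suffix covariate otherwise follows the titles. Among cell type markers, the 13 lung mesenchyme markers tested ranged in WT from a mean of 2.32 (Tcf21) to 12.87 log2 CPM (Col1a1). They were thus not uniformly high, and none of 15 macrophage markers was below 1 CPM throughout. The summed macrophage markers were at 682 to 3576 CPM in WT, 404 to 3317 in Sp3+/- and 3408 to 12520 in Sp3-/- libraries, where 6 of 15 rose and none fell against WT. The upper ends in WT and Sp3+/- were the libraries without a suffix, and with the suffix as a covariate none of the 15 was called (median log2 fold change 1.07 in place of 2.35). Summed smooth muscle markers were at 11841 to 25866 CPM in WT, 15030 to 21266 in Sp3+/- and 4149 to 5255 in Sp3-/- libraries, with 7 of 10 lower, also with the covariate. Of all genes tested against WT, 9.77% were called lower and 8.76% higher, or 5.8% and 3.6% with the covariate. In bulk RNA, fewer cells of a type and less RNA per cell cannot be told apart, and the part of cell makeup in the results below was not tested.

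Per kilobase of transcript, Fn1 and Thbs1 were the most abundant members in WT cells, at 1664 ± 269 and 1271 ± 252 CPM per kb (SD, n = 4). Their ranges overlapped, but within each WT library Fn1 exceeded Thbs1, by 1.25 to 1.37 times. This order depends on the length used, here 8410 bp for Fn1 and 6233 bp for Thbs1 (canonical transcripts). All annotated exons merged span 15831 and 6458 bp, and levels by that length were not computed. In the same annotation, lncRNA genes share 11.2% of the canonical Thbs1 transcript. Tnc followed at 429 ± 197 CPM per kb and did not overlap Thbs1. Postn (71.8 ± 22.8) and Thbs2 (50.2 ± 31.3) came next and overlapped each other, and Thbs3 was at 13.1 ± 5.92 CPM per kb, overlapping only the lowest Thbs2 library. Tnxb was at 0.555 ± 0.0558 CPM per kb. Comp, Thbs4 and Tnn were below it, at means of 0.126, 0.0685 and 0.0289 CPM per kb, from 0 to 14 reads per WT library. The order of the 7 highest genes by mean was the same in all 3 genotypes. The balance of pairs within libraries differed. Tnc stood at 0.206 to 0.425 of the Thbs1 level in WT, 0.297 to 0.385 in Sp3+/- and 0.137 to 0.202 in Sp3-/- libraries. Fn1 was 2.11 and 1.91 times Thbs1 in Sp3-/- 685-1 and 697-2 but 0.695 times in 697-5.

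**Figure D1:**
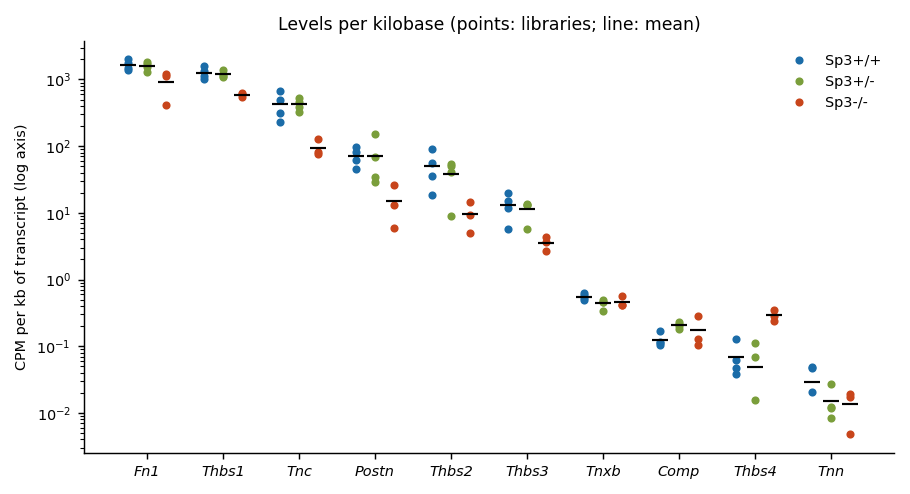
Levels of the 10 genes in CPM per kb of transcript, on a log axis, in Sp3+/+ (WT), Sp3+/- and Sp3-/- libraries. Points are libraries and lines group means, genes run from the highest to the lowest WT mean, and the 2 libraries with 0 reads (Tnn in WT 697-1, Thbs4 in Sp3+/- 468-3) have no point. Fn1, Thbs1 and Tnc stand above the rest at means of 1664, 1271 and 429 CPM per kb in WT.

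Against WT, 5 members fell in Sp3-/- cells (Tnc, Thbs1, Thbs2, Thbs3 and Postn), 1 rose (Thbs4), Fn1 and Tnxb did not pass the test, and Tnn and Comp were below the level required for the test. Fold changes and Benjamini-Hochberg adjusted p-values are from edgeR's quasi-likelihood test on all genes that exceeded 1 CPM in some library, called at an adjusted p below 0.05. Of 14025 genes tested, 9.77% were called lower and 8.76% higher. The members were chosen with earlier results of these data known, so a count above these shares is not a test of the group. Thbs4 entered the test only through its level in Sp3-/- 685-1, so its difference was partly built into its selection. Against Sp3+/-, the same 5 genes were lower and Thbs4 higher, among 12.5% of 14130 genes called lower and 13% called higher. Both comparisons share the 3 Sp3-/- libraries. All 3 Sp3-/- libraries lay below all 8 others for Tnc, Thbs1, Thbs3, Fn1 and Postn, a pattern held by 12.8% of genes, and above all 8 others for Thbs4, a pattern held by 11% of genes.

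**Figure D2:**
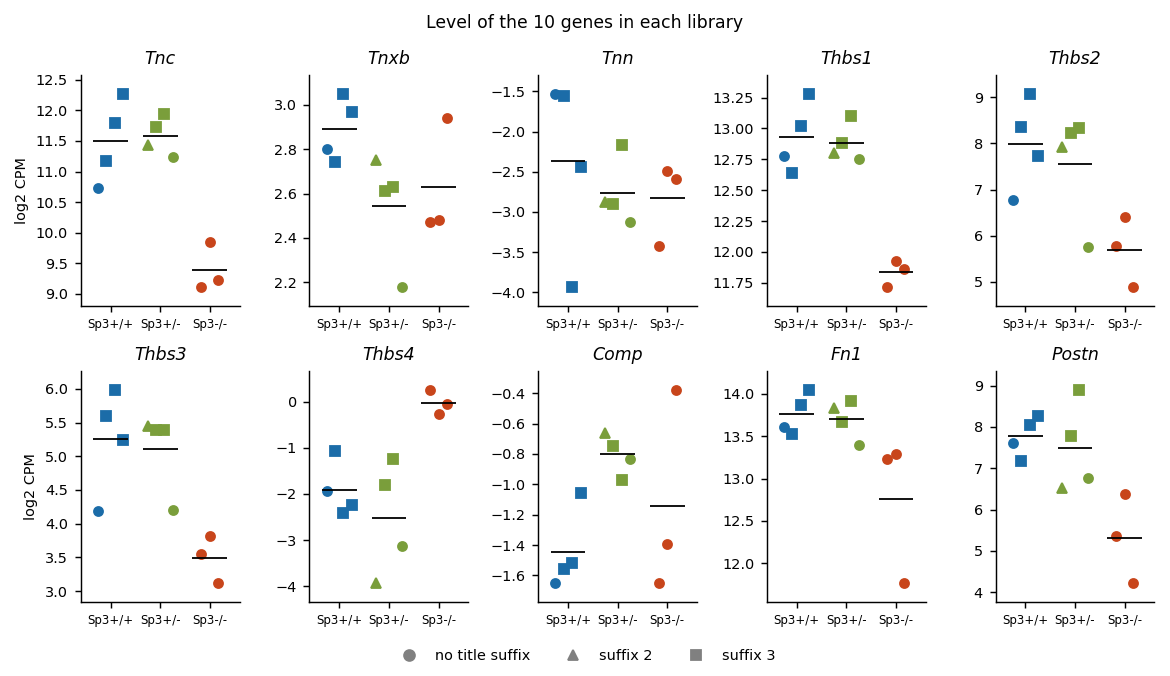
Level of each gene in log2 CPM, with a panel and a y axis of its own, in the 4 Sp3+/+ (WT), 4 Sp3+/- and 3 Sp3-/- libraries. Points are libraries, shapes give the title suffix and lines are group means. For Tnc, Thbs1, Thbs3, Fn1 and Postn all 3 Sp3-/- points sit below the other 8, whereas for Thbs2 the Sp3+/- library without a suffix (5.75) sits among them.

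Among the tenascins, Tnc was at 10.73, 11.18, 11.80 and 12.27 log2 CPM in WT 468-4, 685-2, 697-1 and 697-3. It was at 11.44, 11.73, 11.94 and 11.23 in Sp3+/- 468-3, 685-5, 685-7 and 697-4, and at 9.12, 9.85 and 9.22 in Sp3-/- 685-1, 697-2 and 697-5. The WT and Sp3+/- libraries were mixed in order, and the highest Sp3-/- library was below the lowest of both. Tnc fell 4.55-fold against WT (log2 fold change -2.18, SE 0.41, edgeR adjusted p = 0.0174) and 4.53-fold against Sp3+/- (-2.18, SE 0.36, edgeR adjusted p = 0.00427). With the suffix as a covariate its log2 fold change against WT was -1.49 (edgeR adjusted p = 0.0342), and with 697-4 recoded it was -1.30 (adjusted p = 0.127), which was not called. The call against WT was lost without WT 697-1 or Sp3-/- 697-2 (highest edgeR adjusted p = 0.0558), and the call against Sp3+/- was kept in 11 of 11 fits that left out a library.

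Tnxb did not show the difference of Tnc. It was at 2.80, 2.74, 3.05 and 2.97 log2 CPM in the WT libraries, 2.75, 2.61, 2.63 and 2.18 in Sp3+/- and 2.47, 2.48 and 2.94 in Sp3-/-, in the same order of libraries. The groups overlapped, and the log2 fold change of Sp3-/- against WT was -0.26 (SE 0.20, edgeR adjusted p = 0.36), from 76 to 355 reads per library. Tnn had 0 to 10 reads per library. Its summed reads were 18 in WT, 13 in Sp3+/- and 7 in Sp3-/- libraries, a ratio of 0.468 after division by depth for Sp3-/- against WT (exact 95% interval 0.165 to 1.18, counting error only), which is no detectable difference at this depth.

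Thbs1, the most abundant thrombospondin, varied less than Thbs2 and Thbs3. It was at 12.78, 12.64, 13.02 and 13.28 log2 CPM in the WT libraries, 12.80, 12.88, 13.10 and 12.75 in Sp3+/- and 11.72, 11.93 and 11.86 in Sp3-/-. No Sp3-/- library reached the lowest of the others, and the 3 differed among themselves by 0.21. Thbs1 fell 2.17-fold against WT (log2 fold change -1.12, SE 0.20, edgeR adjusted p = 0.016) and 2.07-fold against Sp3+/- (-1.05, SE 0.17, edgeR adjusted p = 0.00371). The suffix covariate left -0.95 (edgeR adjusted p = 0.0294), and with 697-4 recoded the value was -0.95 as well but was not called (adjusted p = 0.099). As for Tnc, the call against WT was lost without WT 697-1 or Sp3-/- 697-2, whereas the call against Sp3+/- was kept in 11 of 11 fits.

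Thbs2 spread widely within each genotype. It was at 6.77, 8.36, 9.08 and 7.73 log2 CPM in WT, 7.93, 8.22, 8.34 and 5.75 in Sp3+/- and 5.77, 6.41 and 4.89 in Sp3-/- libraries. The lowest WT and the lowest Sp3+/- library were 468-4 and 697-4, the only ones of these genotypes without a title suffix, and 697-4 lay within the Sp3-/- range. Thbs2 fell 5.31-fold against WT (log2 fold change -2.41, SE 0.60, edgeR adjusted p = 0.0345) and 4.09-fold against Sp3+/- (-2.03, SE 0.67, edgeR adjusted p = 0.0477). With the suffix as a covariate the log2 fold change against WT was -0.70 (SE 0.47, edgeR adjusted p = 0.355) and was not called. The call against WT held in 1 of 7 fits that left out a library, that without WT 468-4, and the call against Sp3+/- in 3 of 11. It was also lost when every gene with a count was tested (-2.42 against WT, edgeR adjusted p = 0.0502), and against Sp3+/- with limma-voom (-1.72, adjusted p = 0.0885), with only the libraries of those genotypes (edgeR adjusted p = 0.0518) and with the suffix covariate (-0.25, edgeR adjusted p = 0.796).

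Thbs3 followed the same libraries at a lower level: 4.19, 5.60, 5.98 and 5.24 log2 CPM in WT, 5.45, 5.39, 5.39 and 4.21 in Sp3+/- and 3.55, 3.81 and 3.12 in Sp3-/-. Again WT 468-4 and Sp3+/- 697-4 were the lowest of their genotypes, although both stayed above the Sp3-/- libraries. Thbs3 fell 3.66-fold against WT (log2 fold change -1.87, SE 0.41, edgeR adjusted p = 0.0263) and 3.18-fold against Sp3+/- (-1.67, SE 0.42, edgeR adjusted p = 0.0184). The suffix covariate left -0.76 against WT (edgeR adjusted p = 0.0862) and -0.58 against Sp3+/- (edgeR adjusted p = 0.179), limma-voom did not call Thbs3 against WT (-1.61, adjusted p = 0.0571), and the call against WT held in 1 of 7 fits that left out a library, that without WT 468-4. In a newer annotation (GENCODE vM39) the end of the neighboring gene Mtx1, at 34.9 to 52.0 CPM, shares 8.56% of the exon bases of the main Thbs3 transcript, and the strand setting of the counting is not stated.

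A test of suffix 3 against none, with genotype held constant, was added after these values were seen. This test rests on WT 468-4 and Sp3+/- 697-4, the only libraries outside Sp3-/- without a title suffix. Both were already seen to be the lowest of their genotypes for Thbs2 and Thbs3, so it is no independent check of that observation. It was not repeated with 697-4 recoded. It called 2.51% of 14130 genes higher with suffix 3, and the members called were Thbs2 (log2 fold change 2.08, SE 0.47, edgeR adjusted p = 0.0393) and Thbs3 (1.32, SE 0.22, edgeR adjusted p = 0.0184). The same difference was 0.85 for Tnc (SE 0.31, edgeR adjusted p = 0.125), 0.86 for Postn (SE 0.58, edgeR adjusted p = 0.375), 0.29 for Fn1 (SE 0.36, edgeR adjusted p = 0.639) and 0.22 for Thbs1 (SE 0.18, edgeR adjusted p = 0.463). With the suffix as a covariate, 3 members stayed called in Sp3-/- against WT (Tnc and Thbs1 lower, Thbs4 higher), among 5.8% of genes called lower and 3.6% higher. Thbs4 again entered only through Sp3-/- 685-1. In that fit Thbs2, Thbs3 and Postn were no longer called. With 697-4 recoded to suffix 2, WT 468-4 was the only library outside Sp3-/- without a suffix. That fit called none of the 8 members tested and 163 genes against WT, with 4 members and 2464 genes at an unadjusted p under 0.05, and the directions of the 8 were those of the fit without a covariate.

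**Figure D3:**
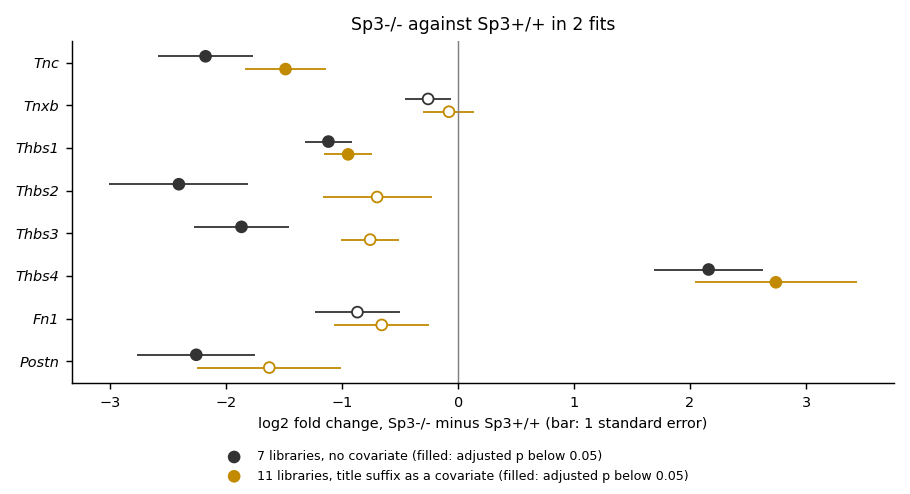
Log2 fold change of Sp3-/- against Sp3+/+ (WT) for the 8 genes tested, in the 7 libraries of these genotypes and in all 11 libraries with the title suffix as a covariate. Bars are 1 standard error and filled points have an adjusted p below 0.05. With the covariate Thbs2 moves from -2.41 to -0.70 and Thbs3 from -1.87 to -0.76, while Thbs1 moves from -1.12 to -0.95.

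Thbs4 and Comp were near the limit of counting. Thbs4 had 7, 6, 3 and 5 reads in the WT libraries, 0, 13, 16 and 1 in Sp3+/- and 40, 34 and 9 in Sp3-/-, in the same order. In CPM every Sp3-/- library was above every other. Summed over libraries Thbs4 was at 0.916 CPM in Sp3-/- and 0.193 CPM in WT, a ratio of 4.76 (exact 95% interval 2.92 to 8.09, counting error only). In edgeR the log2 fold change was 2.16 against WT (SE 0.47, adjusted p = 0.0252) and 2.27 against Sp3+/- (SE 0.63, adjusted p = 0.0272), and the fit with the suffix gave 2.74 against WT (adjusted p = 0.0439) and 2.67 against Sp3+/- (adjusted p = 0.0765), the latter not called. With 697-4 recoded it was 2.21 against WT (edgeR adjusted p = 0.197). The call against WT held in 2 of 6 fits that left out a library, and without Sp3-/- 685-1 Thbs4 did not enter the test. Because Thbs4 passed the level filter only through that Sp3-/- library, its p-values above are not free of its selection. Without that filter, on every gene with a count, the value against WT was 2.15 (edgeR adjusted p = 0.026). Comp had 4 to 14 reads per WT, 8 to 31 per Sp3+/- and 7 to 14 per Sp3-/- library. Its ratio of summed CPM was 1.06 for Sp3-/- against WT (exact 95% interval 0.628 to 1.79) and 1.59 for Sp3+/- against WT (1.04 to 2.48). Both intervals hold counting error only. All 4 Sp3+/- libraries were above all 4 WT libraries, but the share of all genes with this order was not counted. With edgeR's own count filter Comp could be tested across libraries, and it was not called (log2 fold change 0.69, SE 0.35, edgeR adjusted p = 1).

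Fn1 was at 13.61, 13.53, 13.86 and 14.04 log2 CPM in the WT libraries, 13.83, 13.67, 13.91 and 13.39 in Sp3+/- and 13.23, 13.29 and 11.77 in Sp3-/-. All 3 Sp3-/- libraries were the lowest, but 2 of them by little, and 697-5, which also had the fewest reads, stood 1.46 below the nearest. The log2 fold change was -0.87 against WT (SE 0.37, edgeR adjusted p = 0.126) and -0.81 against Sp3+/- (SE 0.31, edgeR adjusted p = 0.0801), and neither was called. Without 697-5 the value against WT was -0.53. DESeq2 called Fn1 against WT at the same size (-0.87, adjusted p = 0.0399), whereas limma-voom did not (-1.12, adjusted p = 0.0793). Against Sp3+/-, DESeq2 (-0.80, adjusted p = 0.0273) and limma-voom (-1.05, adjusted p = 0.0387) both called it, so the call depends on the tool.

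Postn also spread widely. It was at 7.61, 7.17, 8.04 and 8.26 log2 CPM in WT, 6.52, 7.77, 8.89 and 6.76 in Sp3+/- and 5.37, 6.37 and 4.22 in Sp3-/- libraries. The Sp3-/- libraries were below all others, with the highest of them 0.15 below the lowest Sp3+/- library. Postn fell 4.78-fold against WT (log2 fold change -2.26, SE 0.51, edgeR adjusted p = 0.027) and 4.69-fold against Sp3+/- (-2.23, SE 0.64, edgeR adjusted p = 0.0296). The suffix covariate left -1.63 against WT (SE 0.62, edgeR adjusted p = 0.126) and -1.77 against Sp3+/- (edgeR adjusted p = 0.141). The call against WT was lost without WT 697-1, WT 697-3 or Sp3-/- 685-1 and held in 4 of 7 fits. The call against Sp3+/- was lost when every gene with a count was tested (edgeR adjusted p = 0.0564) and with only the libraries of those genotypes (edgeR adjusted p = 0.0594).

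**Figure D4:**
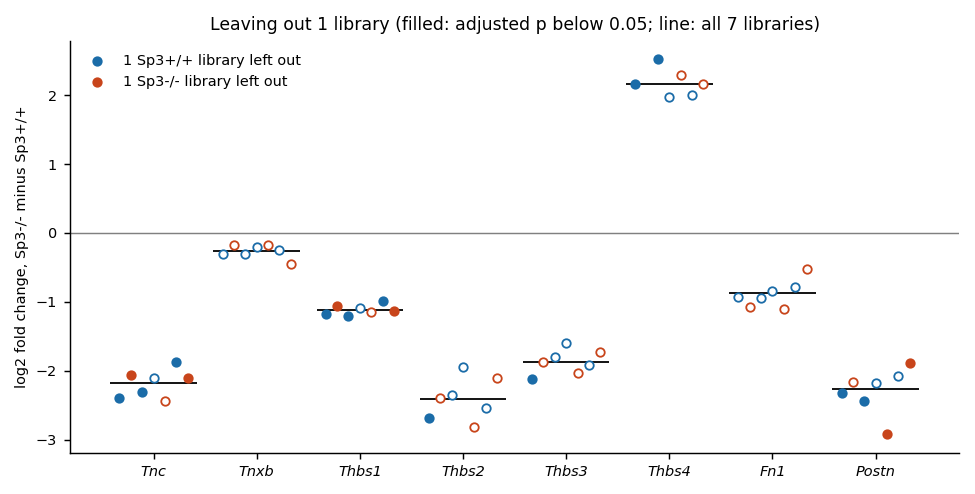
Log2 fold change of Sp3-/- against Sp3+/+ (WT) for the 8 genes after removal of any one of the 7 libraries. Filled points have an adjusted p below 0.05, colors give the genotype of the library left out and lines are the values from all 7. Directions did not change, but the number of the 7 fits that kept a call ran from 5 for Tnc and Thbs1 to 1 for Thbs2 and Thbs3.

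The libraries were also compared within each first number of the labels that had all 3 genotypes. For the 5 genes called lower the direction there was fixed in advance, because their Sp3-/- and WT libraries did not overlap. The values below therefore add sizes only. Among libraries numbered 685 (1 WT, 2 Sp3+/- and 1 Sp3-/-), the log2 difference of Sp3-/- from WT was -2.06 for Tnc, -0.92 for Thbs1, -2.59 for Thbs2, -2.05 for Thbs3 and -1.80 for Postn. Among those numbered 697 (2 WT, 1 Sp3+/- and 2 Sp3-/-) it was -2.50, -1.25, -2.76, -2.15 and -2.85 for the same genes. For Tnc, Thbs1, Thbs3, Fn1 and Postn the Sp3-/- libraries lay below every WT and Sp3+/- library, hence also below those of the same number. With the first number as a block, the 5 calls against WT were kept, and against Sp3+/- those of Thbs2 (edgeR adjusted p = 0.108) and Postn (edgeR adjusted p = 0.0596) were not. In the block fit against WT, WT 468-4 was alone in its number and so did not inform the difference. The WT libraries numbered 685 and 697 all have suffix 3, and the Sp3-/- libraries have none. Genotype and suffix therefore cannot be told apart in that fit or in the sizes above. Among the 5 libraries without a title suffix, Tnc was at 9.12 to 9.85 log2 CPM in Sp3-/- against 10.73 and 11.23 in the others. That the 3 Sp3-/- libraries were below both others for Tnc, Thbs1, Thbs3, Fn1 and Postn follows from the same order. The share of all genes with this pattern was not counted. For Thbs2 the Sp3-/- libraries overlapped the others (4.89 to 6.41 against 5.75 and 6.77).

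Loss of a single copy left no member called. Of 14130 genes tested in Sp3+/- against WT, 0% were called by edgeR, with 246 genes and no member at an unadjusted p under 0.05. DESeq2, limma-voom and limma-voom with a consensus correlation also called 0 genes, with 281, 303 and 306 at an unadjusted p under 0.05, of which 1 in each was a member. The log2 fold changes were -0.01 for Tnc (SE 0.31), -0.35 for Tnxb (SE 0.17), -0.07 for Thbs1 (SE 0.15), -0.38 for Thbs2 (SE 0.58), -0.20 for Thbs3 (SE 0.36), -0.07 for Fn1 (SE 0.29) and -0.04 for Postn (SE 0.55). Thbs4 was at -0.10 (SE 0.69). The errors are wide for Thbs4, Thbs2 and Postn, so sizeable changes of these genes would not have been detected. Sp3 itself, with a single copy lost, was at -0.49 (SE 0.16) and was not called either. Changes of that size in the other members could therefore also have been missed.

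The members were then set against other genes by their profile, among 6043 genes with a mean above 5 log2 CPM. The measure was the root-mean-square difference of centered log2 CPM over 11 libraries. Profiles were not scaled, so it reflects the size of differences between libraries as well as their shape. Nearest to Tnc were Pdgfrb, a receptor of pericytes and fibroblasts (0.182), and the laminin chain Lama2 (0.201), where the median gene was at 1.07. Nearest to Thbs1 were Btbd3 and Ext1, a heparan sulfate polymerase (both 0.115, median 0.542). Thbs2 was nearest to the mesenchymal homeobox gene Prrx1 (0.329) and the calcium channel gene Cacna1c (0.331, median 1.31), Fn1 to Ephb4 (0.198) and Ddah2 (0.216, median 0.618), and Postn to Col14a1 (0.443) and Cxcl12 (0.541, median 1.30). Among pairs of the 7 most abundant members, Fn1 and Thbs1 (0.391), Thbs2 and Thbs3 (0.454) and Tnc and Thbs3 (0.486) were closest. Thbs1 and Tnxb came next (0.494), although Thbs1 was called lower in Sp3-/- libraries and Tnxb was not. These values describe the same 11 libraries, and genotype and suffix are part of every profile.

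Of 32 further matricellular and adhesive glycoproteins, 29 were tested in Sp3-/- against WT, 8 fell and 2 rose, with a median log2 fold change of -0.48 beside 0.00 for all genes. For this list and those below, the shares of all genes against WT were 9.77% called lower and 8.76% higher. With the suffix as a covariate they were 5.8% and 3.6%. The lists, like the members, were chosen with earlier results of these data known. Those named by size were Wisp2, a CCN family member (-3.33, edgeR adjusted p = 0.00764), hemicentin Hmcn1 (-2.93, edgeR adjusted p = 0.00887), Matn2 (-2.40, edgeR adjusted p = 0.0129), the basement membrane protein Nid1 (-1.63, edgeR adjusted p = 0.0111) and Emilin1 of elastic fibers (-1.42, edgeR adjusted p = 0.0232). With the suffix as a covariate 5 of the 29 were lower and none higher, and Emilin1 was no longer called (-0.60, edgeR adjusted p = 0.121). The fourth tenascin, Tnr, had 0 to 7 reads per library.

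Of 22 cell surface receptors of the members, 20 were tested, 1 fell and 1 rose (median -0.32). Both counts are below the shares of all genes called lower (9.77%) and higher (8.76%). Itga8, the integrin chain that binds fibronectin and tenascin-C with Itgb1, fell by 2.81 on the log2 scale (SE 0.32, edgeR adjusted p = 0.00744). Sdc4, a heparan sulfate coreceptor of fibronectin, rose by 0.92 (SE 0.20, edgeR adjusted p = 0.0266). The fit with the suffix kept the call of Itga8 (-2.06, edgeR adjusted p = 0.00606) but not that of Sdc4 (0.92, edgeR adjusted p = 0.0631). Of 31 matrix partners and processing enzymes tested, 10 fell and 1 rose (median -0.92). The largest changes among them were in elastin Eln (-5.04, SE 1.27, edgeR adjusted p = 0.0357), the fibril-associated collagen Col12a1 (-2.43, edgeR adjusted p = 0.00744), the procollagen protease Tll1 (-2.37, edgeR adjusted p = 0.00727), the TGFβ binding protein Ltbp1 (-2.12, edgeR adjusted p = 0.0192) and fibrillin Fbn1 (-1.71, edgeR adjusted p = 0.0266). The suffix covariate left 5 of the 31 lower and none higher (median -0.36), and Eln (-2.48, edgeR adjusted p = 0.125) and Fbn1 (-0.80, edgeR adjusted p = 0.0755) were not among them.

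Of 32 upstream factors linked to the members, all tested, 6 fell, counting Sp3, the gene lost by genotype, and 2 rose (median -0.15). Besides Sp3 (-2.30, SE 0.21, edgeR adjusted p = 0.00611) these included Prrx1 (-2.89, edgeR adjusted p = 0.0193), Twist2 (-2.36, edgeR adjusted p = 0.0136), the TGFβ ligand Tgfb2 (-1.68, edgeR adjusted p = 0.00611) and the growth factor Pdgfb, which rose (2.19, edgeR adjusted p = 0.0161). With the suffix as a covariate 4 were lower, again counting Sp3, and 3 higher, and Prrx1 (-1.52, edgeR adjusted p = 0.0707) and Twist2 (-1.35, edgeR adjusted p = 0.112) were not called. Against Sp3+/-, 10 of 29 matricellular genes, 12 of 31 partners and enzymes, 8 of 20 receptors and 9 of 32 upstream factors (counting Sp3) fell. In the same order 1, 1, 1 and 6 rose, where 12.5% of all genes were called lower and 13% higher. With the covariate 3, 5, 1 and 4 fell, and only upstream factors rose (3). In that fit 504 of 14130 genes were called lower and 259 higher. Of 8 cartilage and tendon markers tested, where Comp and Thbs4 are typical, none was called against WT. Of 9 mesothelial markers 4 rose, with a summed level of 784 to 1854 CPM in WT, 1600 to 2835 in Sp3+/- and 2210 to 6548 in Sp3-/- libraries. Of 8 epithelial markers tested 3 rose, from sums of 25.2 to 51.0 CPM in WT to 53.5 to 181 in Sp3-/-, while Sftpb, Cldn6 and Cldn18 were below 1 CPM in every library. Of 13 lung mesenchyme markers tested 5 fell and 2 rose, of 11 endothelial markers 1 fell and 2 rose, and of 7 glial and neuronal markers 1 fell. In the fit with the suffix 1 mesothelial and 1 epithelial marker were higher, lung mesenchyme had 2 lower and 1 higher, and no endothelial, glial or neuronal marker was called.

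**Figure D5:**
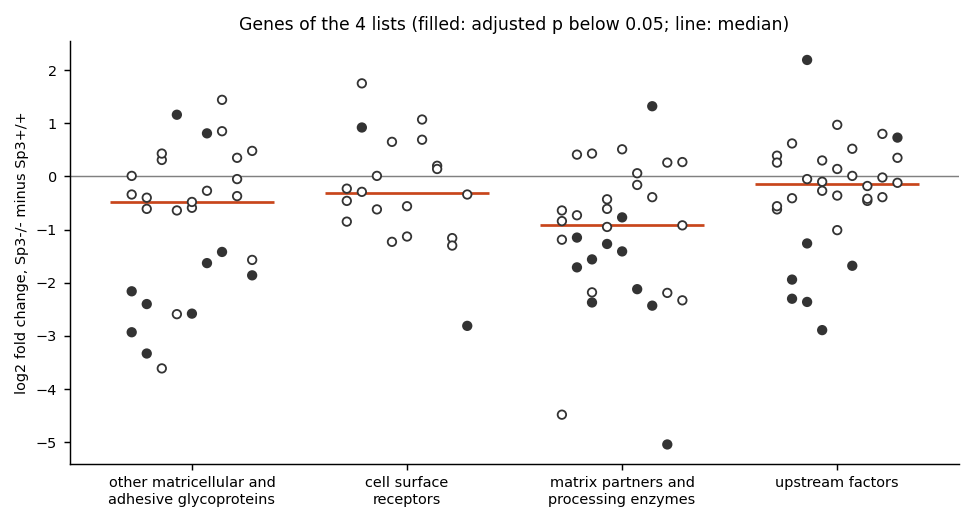
Log2 fold change of Sp3-/- against Sp3+/+ (WT) for the tested genes of the 4 lists. Each point is a gene, filled at an adjusted p below 0.05, and the lines are the medians of the lists, -0.48, -0.32, -0.92 and -0.15 from left to right.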

How the data were processed

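RNA-seq was made from TruSeq libraries of 4 WT, 4 Sp3+/- and 3 Sp3-/- cultures, as 50 bp single end reads. The authors checked reads with FastQC 0.10.1, aligned them to mm10 with STAR 2.4.5a and counted them with HTSeq, and deposited whole-number counts per gene symbol with no normalization. The annotation version and strand setting are not given in the sources used here. Genotypes were taken from the labels, and replicate numbers follow accession order and pair nothing. The 5 tallies of reads outside genes (38.4% to 40.9% of each total) were left out. Nothing states that libraries of a genotype came from separate embryos, so p-values measure the spread between these libraries. No 2 libraries of a genotype agreed within counting noise (lowest chi-square per degree of freedom 15.8).

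A gene entered a fit if it exceeded 1 CPM in some fitted library, and edgeR 4.0.16 (robust glmQLFit and glmQLFTest after TMM) in R 4.3.3 gave the tests. Sp3-/- against WT used 7 libraries and the other comparisons all 11. Log2 CPM values use TMM factors of 11 libraries and a prior count of 2. Each standard error was derived from the F statistic. The scripts were tested on simulated data. Transcript lengths are those of the canonical transcripts of GENCODE vM39 (GRCm39), a newer build than that of the counts. Alternatives were DESeq2 1.42.0, limma-voom (limma 3.58.1), plain or with a consensus correlation among libraries of a first label number, upper quartile or library size alone, other count filters, the title suffix as a covariate (also with 697-4 as suffix 2, added after the data were seen), the first label number as a block, libraries without a suffix only, 1 fit of all libraries and each library left out. The members and lists were chosen with earlier results of these data known. Named genes are the members, Sp3, from each list at most 5 called genes of largest change with a mean above 2 log2 CPM, and the 2 nearest profiles of members with a mean above 5.

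The members lie, on GRCm38.p6, at chr4:63959785-64047015 (Tnc), chr17:34660453-34719815 (Tnxb), chr1:160085029-160153692 (Tnn), chr2:118111876-118127133 (Thbs1), chr17:14665500-14694262 (Thbs2), chr3:89215180-89226841 (Thbs3), chr13:92751586-92794818 (Thbs4), chr8:70373548-70382066 (Comp), chr1:71585473-71653280 (Fn1) and chr3:54359267-54391041 (Postn). Promoter entries for Thbs1, Comp and Fn1 were not used here.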

Additional observations from a re-analysis of the deposited data

Results flagged for a closer look

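Among 22 tests of groups of 4 libraries, 2 found a library far from the other 3, where chance flags about 1 in 20. Both were in Sp3+/- 697-4, whose Thbs2 level was 5.75 log2 CPM beside 7.93 to 8.34 in the other 3 Sp3+/- libraries, and whose Thbs3 level was 4.21 beside 5.39 to 5.45. It is the only Sp3+/- library with no title suffix.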

How the results depend on the processing

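No paired analysis was possible because replicate numbers only follow accession order, and the first label number was used as a block in their place. In Sp3-/- against WT, 2599 genes and 6 members were called. The count of genes was 4297 with DESeq2, 3977 with all 11 libraries in 1 fit, 4031 with the first label number as a block and 1329 with the suffix as a covariate, which left 3 members. With 697-4 taken as suffix 2, a choice made after seeing the data, it was 163 genes and 0 members. Among libraries without a suffix (1 WT, assumed to vary like the others, and 3 Sp3-/-), 0 genes and 0 members were called, with 1359 genes at an unadjusted p under 0.05. Leaving out a library gave 282 (without Sp3-/- 697-2) to 4179 genes (without WT 468-4) and 0 (without WT 697-1) to 6 members. The count was 893, 766 and 802 genes without WT 685-2, 697-1 and 697-3 and 1408 without Sp3-/- 697-5. Leaving out a library left 1 member without Sp3-/- 697-2, 2 without Sp3-/- 685-1 or WT 697-3 and 3 without Sp3-/- 697-5. In Sp3-/- against Sp3+/-, with 3607 genes and 6 members, the suffix covariate gave 763 genes and 2 members (0 and 0 with 697-4 recoded, where 1168 genes had an unadjusted p under 0.05), libraries without a suffix 0 and 0 (1386 genes at an unadjusted p under 0.05), and leaving out a library 1490 (without Sp3-/- 697-2) to 4245 genes, with 2314, 2069 and 1887 without Sp3+/- 468-3, 685-5 and 685-7, and 2 (without Sp3-/- 697-5) to 6 members, with 3 members without Sp3-/- 685-1, Sp3+/- 685-5 or Sp3-/- 697-2. Upper quartile scaling moved the median of all genes by about -0.07 and the split of lower and higher calls from 1370 and 1229 to 1671 and 983 against WT, and from 1769 and 1838 to 2171 and 1436 against Sp3+/-, with no change in the members called.

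No direction of a member reversed in Sp3-/- against WT. Against Sp3+/-, Tnxb moved from 0.08 to -0.03 with limma-voom, -0.02 with its consensus correlation and -0.10 to 0.17 when a library was left out, and Thbs2 was at 0.04 among libraries without a suffix. In Sp3+/- against WT, where no member was called, Tnc was at 0.06 with limma-voom and 0.06 with its consensus correlation, 0.15 with the suffix covariate, 0.19 with the block and 0.51 without suffixed libraries. The suffix covariate gave 0.07 for Thbs4 and 0.14 for Postn (0.47 and 0.52 with 697-4 recoded), and libraries without a suffix 0.03 for Thbs3. Leaving out a library spanned -0.21 to 0.29 for Tnc, -0.16 to 0.06 for Thbs1, -0.65 to 0.07 for Thbs2, -0.44 to 0.07 for Thbs3, -0.70 to 0.26 for Thbs4, -0.14 to 0.03 for Fn1 and -0.71 to 0.22 for Postn. The cause of these changes was not tested. Thbs4, Comp and Tnn rest on few reads.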
